A study of Mus musculus with 37 samples.

Results

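Tyr, Slc25a42, Grm2, Phkg1, Dennd5b, Rtn2 and Decr2 are 7 of the 54752 genes measured in single mouse oocytes, and they were chosen by their measured values: they were selected on the difference between oocytes at the germinal vesicle stage (GV) and at metaphase I (MI). No threshold was stated for that choice, so no gene just inside or just outside it can be given. Their difference between GV and MI is therefore described with no test of them, and they were tested only between GV and metaphase II (MII), in oocytes that did not enter the choice. An alternative fit with batch as a covariate also used the oocytes of the choice.

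RNA from 37 single oocytes of C57BL/6 females aged 6 to 8 weeks was sequenced with Smart-seq2, a method that primes on the poly(A) tail and covers the body of the transcript. Batch A held 6 GV oocytes (GV_A) and 6 MII oocytes (MII_A), and batch B held 10 GV oocytes (GV_B) and 15 MI oocytes (MI_B). GV oocytes came from ovaries 48 h after PMSG, a gonadotropin that makes follicles grow. MI oocytes were GV oocytes cultured for 8 h in M16 medium, whereas MII oocytes matured in the animal and were taken from the ampulla 15 h after hCG, the hormone that triggers ovulation, which was given 48 h after PMSG. The zona pellucida and the polar body were removed from the oocytes. MI and MII oocytes never shared a batch, so stage and batch cannot be told apart between them, and the later stages also differed in whether they matured in culture or in the animal. Within batch B only the MI oocytes were cultured, so stage and culture cannot be told apart between GV_B and MI_B. Each oocyte counted as a replicate. Which mouse each came from is not given in the sources used here, so p-values measure the spread between oocytes, some of which may share a mouse.

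A fully grown GV oocyte is arrested in the first meiotic prophase and transcribes very little. While it passes through MI to MII, its RNA pool changes mainly through the decay of stored transcripts, and its protein output through the length of their poly(A) tails. The 7 genes have no common textbook pathway. Tyr encodes tyrosinase, the rate-limiting enzyme of melanin synthesis, Decr2 a peroxisomal reductase that acts on unsaturated fatty acyl-CoA, and Phkg1 the catalytic subunit of muscle phosphorylase kinase, which turns on glycogen breakdown. Slc25a42 encodes a mitochondrial carrier of coenzyme A, Grm2 a metabotropic glutamate receptor that signals through inhibitory G proteins, Dennd5b a DENN domain protein of Rab-dependent vesicle traffic, and Rtn2 a reticulon that shapes the endoplasmic reticulum.

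Gene counts came from RSEM, which divides a read that matches several transcripts among them and gives an expected count, and, for the same oocytes, from HTSeq, which assigns reads to genes by overlap. RSEM totals ran from 7509812 to 12648571 counts in GV_A, from 9930422 to 13988336 in MII_A, from 7184193 to 17724506 in GV_B and from 2709247 to 19390137 in MI_B. MI oocyte 15 was the shallowest, with 12654 genes detected, and MII_A oocyte 1 had 29816 genes detected against a median of 20599 in its group. The median gene had 1.98 to 2.2 HTSeq counts for each RSEM count in 34 of the oocytes, and 1.13, 1.11 and 1.07 in MI oocytes 4, 8 and 9. Many values of batch B taken over groups of oocytes are also given without those 3. Ranges and medians of levels, mean counts and sums of marker genes are given with all oocytes only. No pair of oocytes of a group had identical counts or counts within sampling noise.

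Across batch B, 6 of the 7 genes stood higher at MI than at GV, and Grm2 stood lower. Levels are in CPM, RSEM counts scaled to a common library total after TMM normalisation, which sets the bulk of genes equal between the oocytes of a batch. The factors were set in each batch apart, so levels are not on a matched scale between batches. Among the enzymes, Tyr lay between 1.3 and 3.67 CPM in the 10 GV_B oocytes, with a median of 2.83, and between 0.689 and 23.5 CPM in the 15 MI_B oocytes, with a median of 11.4. No MI oocyte fell inside the GV_B range of Tyr: 14 lay above it and oocyte 9 below it. Decr2, the peroxisomal reductase, lay between 0.442 and 1.72 CPM in GV_B, with a median of 1.01, and between 0.344 and 10.1 CPM in MI_B, with a median of 3.63. Here too 14 MI oocytes were above every GV_B oocyte and oocyte 9 was below all of them. Phkg1 lay between 5.81 and 26.2 CPM in GV_B, with a median of 9.65, and between 3.84 and 93.1 CPM in MI_B, with a median of 39.5. For this kinase subunit the groups overlapped more, with 9 MI oocytes above the GV_B range and oocyte 15, the shallowest, below it.

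Slc25a42, the coenzyme A carrier, was the least abundant per length of the 7 genes at GV and the most uneven at MI. It lay between 0.292 and 1.14 CPM in GV_B, with a median of 0.666, and between 0.269 and 24.1 CPM in MI_B, with a median of 2.13. MI oocytes 11, 2 and 7, at 24.1, 16.7 and 11.8 CPM, stood far from the other 12, and 10 MI oocytes were above the GV_B range. Dennd5b lay between 4.24 and 10.8 CPM in GV_B, with a median of 8.37, and between 7.26 and 38.4 CPM in MI_B, with a median of 17.1. It had 12 MI oocytes above the GV_B range and none below it. Rtn2 lay between 2.38 and 7.13 CPM in GV_B, with a median of 3.24, and between 0.344 and 33.4 CPM in MI_B, with a median of 13.2. MI oocytes 9 and 15 were below the GV_B range of this reticulon and 11 were above it.

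Grm2, the glutamate receptor, lay between 10.9 and 91.7 CPM in GV_B, with a median of 28.5, and between 5.88 and 31.3 CPM in MI_B, with a median of 13.2. The groups overlapped: 5 MI oocytes were below every GV_B oocyte, and GV_B oocyte 7, at 91.7 CPM, stood above the other 9. GV oocytes of batch A held more of it, between 87.0 and 198 CPM with a median of 132. The mean of GV_A was 4.02 times that of GV_B, a wider gap between batches of 1 stage than the ratio of 0.421 between MI_B and GV_B. For the other 6 genes GV_A and GV_B differed less, with ratios of means from 0.944 for Phkg1 to 1.73 for Slc25a42. These ratios between batches include any difference between the scales of the batches. With MI oocytes 4, 8 and 9 left out, the other 12 were all above the GV_B range for Tyr and Decr2, as were 9 for Dennd5b, 9 for Rtn2, 8 for Slc25a42 and 7 for Phkg1. For Grm2 the ratio of means was then 0.460.

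**Figure D1:**
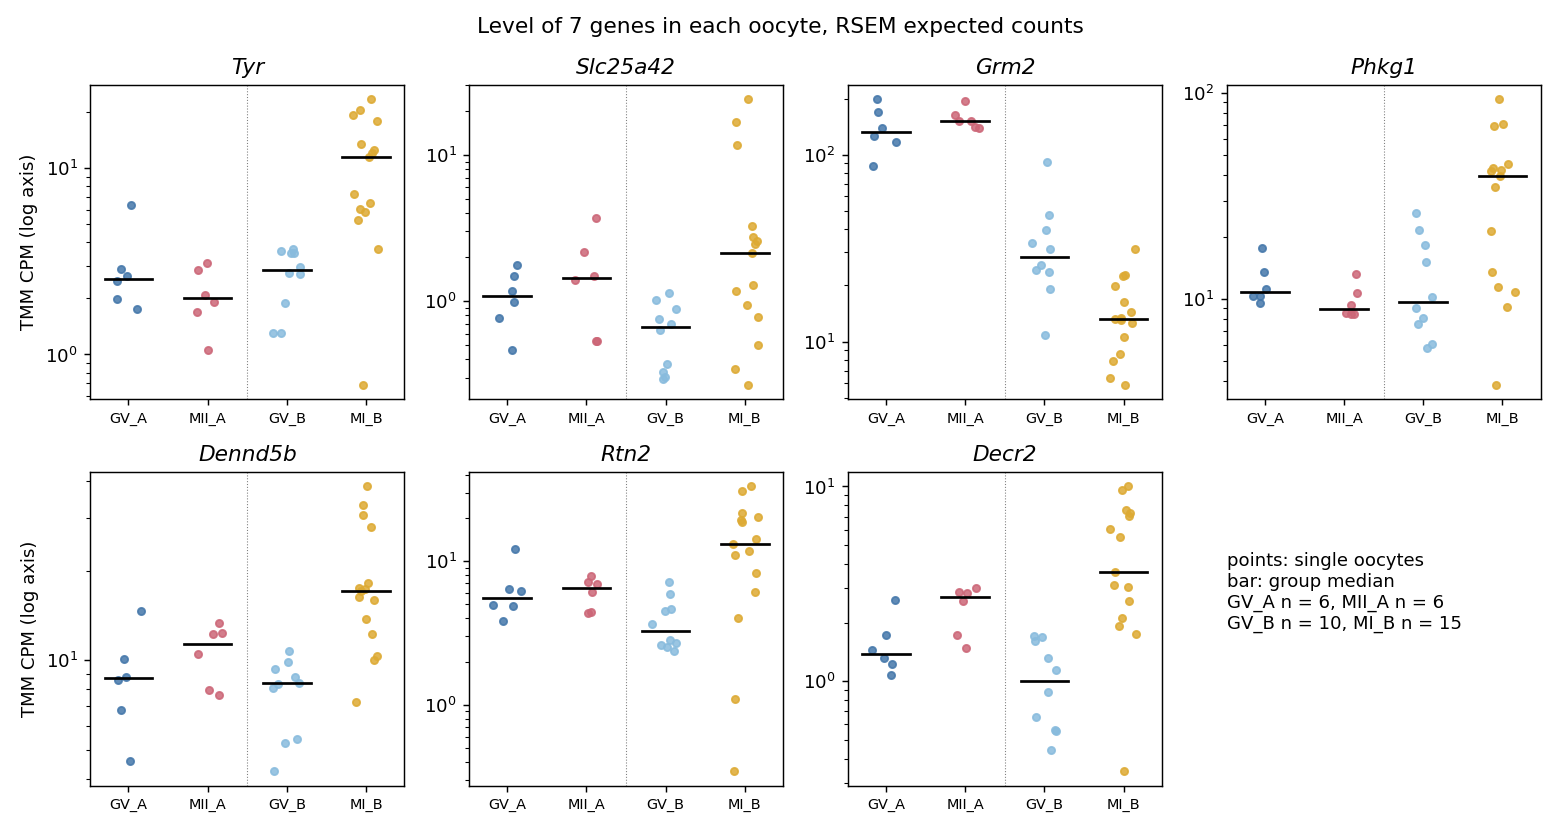
Level of each gene in each oocyte, in TMM-scaled CPM of RSEM counts on a log axis, by group, with 1 point per oocyte and a bar at the group median; the dotted line parts the batches. MI_B oocytes of Tyr reach 23.5 CPM against at most 3.67 in GV_B, Grm2 is lower in MI_B than in GV_B, and no gene parts MII_A from GV_A.

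As a log2 fold change from GV_B to MI_B (± SE, n = 10 and 15), Slc25a42 differed by 2.88 ± 0.673, Decr2 by 2.15 ± 0.435 and Tyr by 2.03 ± 0.377. Rtn2 differed by 1.88 ± 0.424, Phkg1 by 1.53 ± 0.380, Dennd5b by 1.28 ± 0.250 and Grm2 by -1.27 ± 0.272. With the oocyte number as a replicate block Slc25a42 had 1.82, below Decr2 (1.96) and Tyr (1.93), and the other 4 genes had 1.66 (Rtn2), 1.61 (Phkg1), 1.26 (Dennd5b) and -1.25 (Grm2). MI oocytes 11 to 15 have no GV_B oocyte of their number and do not enter the blocked contrast. Oocyte 11 among them held the most Slc25a42, 24.1 CPM. With MI oocytes 4, 8 and 9 left out, the values were 3.08 for Slc25a42, 2.26 for Decr2, 2.13 for Tyr, 2.03 for Rtn2, 1.58 for Phkg1, 1.35 for Dennd5b and -1.14 for Grm2. Without GV_B oocyte 7 that of Grm2 was -0.98, less than a fold of 2. A call needed a fold change over 2 and, in edgeR's quasi-likelihood test, a p under 0.05 after Benjamini-Hochberg adjustment. Over the whole table of 12419 genes tested in batch B, 15 (0.121%) were called, 11 higher and 4 lower at MI, and with 1 oocyte left out from 0 (without MI oocyte 7) to 82 (without MI oocyte 9). No call is given for the 7 genes here, since this contrast chose them.

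Between GV_A and MII_A, the oocytes that did not enter the choice, none of the 7 genes was called. Tyr lay between 1.76 and 6.34 CPM in the 6 GV_A oocytes, with a median of 2.55, and between 1.06 and 3.11 CPM in the 6 MII_A oocytes, with a median of 2.00. The groups overlapped, and GV_A oocyte 4 stood above all others. Slc25a42 lay between 0.464 and 1.78 CPM in GV_A, with a median of 1.08, and between 0.531 and 3.73 CPM in MII_A, with a median of 1.44. Only 2 MII oocytes exceeded the GV_A range of the carrier. Grm2 lay between 138 and 193 CPM in MII_A, with a median of 151, inside its GV_A range. Phkg1 lay between 9.55 and 17.7 CPM in GV_A, with a median of 10.8, and between 8.43 and 13.3 CPM in MII_A, with a median of 8.94. In this case 4 MII oocytes were below the GV_A range.

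Dennd5b lay between 4.58 and 14.7 CPM in GV_A, with a median of 8.70, and between 7.65 and 13.3 CPM in MII_A, with a median of 11.3. Rtn2 lay between 3.82 and 12.1 CPM in GV_A, with a median of 5.56, and between 4.34 and 7.86 CPM in MII_A, with a median of 6.52. For both genes every MII oocyte was inside the GV_A range. Decr2 lay between 1.07 and 2.62 CPM in GV_A, with a median of 1.38, and between 1.49 and 3.01 CPM in MII_A, with a median of 2.72, so that 3 MII oocytes were above the GV_A range of the reductase.

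From GV_A to MII_A the log2 fold change, with its SE over 6 and 6 oocytes and edgeR's adjusted p over all 12929 genes tested, was -0.50 ± 0.373 for Tyr (adjusted p = 0.370), 0.63 ± 0.336 for Decr2 (adjusted p = 0.197) and -0.30 ± 0.212 for Phkg1 (adjusted p = 0.341). It was 0.58 ± 0.498 for Slc25a42 (adjusted p = 0.442), 0.16 ± 0.174 for Grm2 (adjusted p = 0.540), 0.26 ± 0.264 for Dennd5b (adjusted p = 0.522) and -0.06 ± 0.293 for Rtn2 (adjusted p = 0.916). All 7 genes passed the filter on low counts, and 0 were called by edgeR or by DESeq2, against 1095 genes (8.47%) in the whole table. At an unadjusted p under 0.05 edgeR counted 0 of the 7 and 4441 of all genes. With size factors from spike-in RNA, described below, it counted 4 of the 7 and 6875 of all genes. The sign was that of the MI_B difference for 3 of the 7 genes, Slc25a42, Dennd5b and Decr2, and the opposite for Tyr, Grm2, Phkg1 and Rtn2; it was the same in both batches for 6374 of the 11804 genes tested in both (54%). The sign of Rtn2, near 0, turned in 5 of its 18 alternatives, among them the replicate block (0.022), batch as a covariate (0.0031) and without GV_A oocyte 4 (0.23), so that 4 of the 7 had the sign of MI_B there. The fit with batch as a covariate also includes the oocytes of batch B, so it is not independent of the choice of the genes. With size factors from the spike-in RNA of batch A the median of all genes moved to -0.72, and the values of Slc25a42 (-0.10), Grm2 (-0.52), Dennd5b (-0.42) and Decr2 (-0.13) changed sign while staying above that median. Only 1 of the 7, Grm2, then had the sign of MI_B, on a scale that moves all genes down together. The sign changes go with that shift, so this count says nothing about these genes in particular. With HTSeq counts 1 of the 3 genes fitted, Dennd5b, had the sign of MI_B. On the spike-in scale Tyr (-1.06, adjusted p = 0.0378) and Phkg1 (-1.07, adjusted p = 0.0105) were called lower at MII. Of all 12929 genes tested 3919 were called there, so a call was common on that scale. They split into 131 higher and 3788 lower, against 278 higher and 817 lower with TMM. Over the 18 alternatives run for Tyr the adjusted p ran from 0.0378 to 0.815, and over the 19 for Phkg1 from 0.0105 to 0.950.

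Scaled by transcript length, in CPM per kilobase of all of a gene's measured transcripts, Grm2 was the most abundant of the 7 genes in GV_A, at 49.8 ± 15.6 (SD, n = 6), the 88.5th percentile of 11803 genes. Phkg1 followed at 5.58 ± 1.44, then Rtn2 at 1.83 ± 0.848 and Dennd5b at 1.11 ± 0.347. Decr2 (0.705 ± 0.252), Tyr (0.498 ± 0.279) and Slc25a42 (0.330 ± 0.149) came last. Rtn2 and Dennd5b differed by less than the larger of their SDs, and so did neighbours among the last 3. In GV_B the order began with Grm2 at 10.1 ± 7.20 and Phkg1 at 5.91 ± 3.31, followed by Dennd5b (1.14 ± 0.653) and Rtn2 (1.11 ± 0.464), and ended with Decr2, Tyr and Slc25a42 between 0.474 and 0.196. There Grm2 and Phkg1, Dennd5b and Rtn2, and Decr2 and Tyr did not differ beyond their spread. At MI the order changed to Phkg1 (17.4 ± 12.2), Grm2 (4.65 ± 2.14), Rtn2 (4.08 ± 2.82), Dennd5b (2.44 ± 1.49), Decr2 (2.14 ± 1.36), Tyr (1.84 ± 1.13) and Slc25a42 (1.45 ± 2.16, n = 15), and neighbours among the last 6 differed by less than the larger of their SDs. The order was the same without MI oocytes 4, 8 and 9, where Phkg1 (18 ± 13.1) and Grm2 (5.09 ± 2.10, n = 12) also differed by less than the larger SD, as they did not with all 15. In MII_A Grm2 led at 57.2 ± 7.47 and Phkg1 stood at 4.56 ± 0.919, while the other 5 lay between 0.358 for Tyr and 1.75 for Rtn2, and among these 5 neighbours differed beyond their spread only between Decr2 and Slc25a42.

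The counters gave different pictures of these genes. For each RSEM count of batch B, HTSeq assigned 2.03 counts to Grm2, close to the median of 1.91 over the 12419 genes tested, but 0.604 to Dennd5b, 0.162 to Phkg1, 0.0787 to Decr2, 0.0311 to Rtn2, 0.0264 to Tyr and 0.0250 to Slc25a42. A ratio under 0.2 was found for 5 of the 7 genes and for 9.68% of all genes tested, and a ratio under 0.1 for 4 of the 7 and 8.29%. Both limits were chosen after the values were seen. Among other genes called in batch B, the ratio was under 0.2 for 6 of 8 higher at MI and 1 of 3 lower. Without MI oocytes 4, 8 and 9 the ratio was 2.11 for Grm2, 0.659 for Dennd5b, 0.177 for Phkg1, 0.0920 for Decr2, 0.0359 for Rtn2, 0.0155 for Tyr and 0.0279 for Slc25a42, beside a median of 2.06. The number of genes under each limit, 5 and 4 of the 7, was the same without those 3 and with any 1 oocyte of batch B left out. In batch A, which did not enter the choice, it was 3 of the 7 under either limit, beside 9.2% of all genes under 0.2. The ratios of Rtn2, Tyr and Decr2 rested on single oocytes, whereas with 1 oocyte left out that of Slc25a42 lay between 0.0184 and 0.0339 and that of Phkg1 between 0.152 and 0.179. MI oocyte 6 held 94 of the 105 HTSeq counts of Rtn2, and without it the ratio was 0.00338. MI oocyte 4 held 35 of the 68 counts of Tyr, and GV_B oocyte 9 held 45 of the 85 of Decr2, and without them the ratios were 0.0137 and 0.0381. The 15 MI oocytes held 0 to 35 HTSeq counts of Tyr, 0 in 9 of them, where RSEM gave 8 to 446. Rtn2 had 0 HTSeq counts in 12 of the 15 MI oocytes and Decr2 in 11, and Slc25a42 had at most 4 in any of them against up to 291 from RSEM. In batch A the ratios were 2.16 for Grm2, 0.599 for Dennd5b, 0.50 for Phkg1, 0.295 for Decr2, 0.0966 for Tyr, 0.0893 for Slc25a42 (0.0494 without MII_A oocyte 4) and 0.0179 for Rtn2 (0.00812 without MII_A oocyte 1). Within batch B the ratio of Phkg1 was 0.408 in GV_B and 0.111 in MI_B (0.116 without MI oocytes 4, 8 and 9), and with 1 oocyte left out it was at least 0.382 in GV_B and at most 0.125 in MI_B. That of Slc25a42 was 0.228 and 0.00832, at least 0.153 and at most 0.0116 with 1 oocyte left out, from 18 and 8 HTSeq counts. Without MI oocyte 1 the MI_B ratio was 0.00420. In batch A the order was the other way, 0.0145 in GV_A and 0.141 in MII_A, from 1 and 14 HTSeq counts. The ratio of Decr2 was 0.329 in GV_B and 0.0406 in MI_B. GV_B oocyte 9 held 45 of the 47 HTSeq counts of GV_B, and without it the GV_B ratio was 0.0179, below that of MI_B. MI oocyte 3 held 32 of the 38 counts of Decr2 in MI_B, where the ratio without it was 0.00755. How HTSeq treated strand and reads with several matches is not given in the sources used here.

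With HTSeq counts in place of RSEM counts, only Grm2, Dennd5b and Phkg1 passed the filter. Of the 4 others, with few counts, mean HTSeq CPM from GV_B to MI_B went from 0.126 to 0.0493 for Slc25a42 and from 0.237 to 0.161 for Decr2, opposite to RSEM, and from 0.0666 to 0.374 for Tyr and from 0.0714 to 0.709 for Rtn2. The means of Decr2, Tyr and Rtn2 rested largely on the single oocytes named above. Without GV_B oocyte 9, at 2.20 CPM of Decr2, the GV_B mean of Decr2 lay below that of MI_B, as with RSEM. In the other GV_B oocytes Decr2 had 0, or 0.164 CPM in oocyte 8. Without MI oocyte 6, at 10.1 CPM, the MI_B mean of Rtn2 lay below that of GV_B. Grm2 differed from GV_B to MI_B by -1.26 ± 0.273 on the log2 scale and Dennd5b by 1.41 ± 0.379, close to their RSEM values. Phkg1 differed by 0.06 ± 0.486, where RSEM gave 1.53. Without MI oocytes 4, 8 and 9 these were -1.13 for Grm2, 1.52 for Dennd5b and -0.08 for Phkg1. From GV_A to MII_A the HTSeq values were 0.15 for Grm2 (edgeR adjusted p = 0.612), 0.04 for Dennd5b (adjusted p = 0.960) and -0.05 for Phkg1 (adjusted p = 0.950). Among all genes with HTSeq counts edgeR called 0 in batch B, with 927 at an unadjusted p under 0.05, and 101 higher and 676 lower in batch A. In batch A a ratio under 0.2 was found for 185 of the 278 called higher at MII (66.5%) and 85 of the 817 called lower (10.4%), beside 9.2% of all genes tested there.

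**Figure D2:**
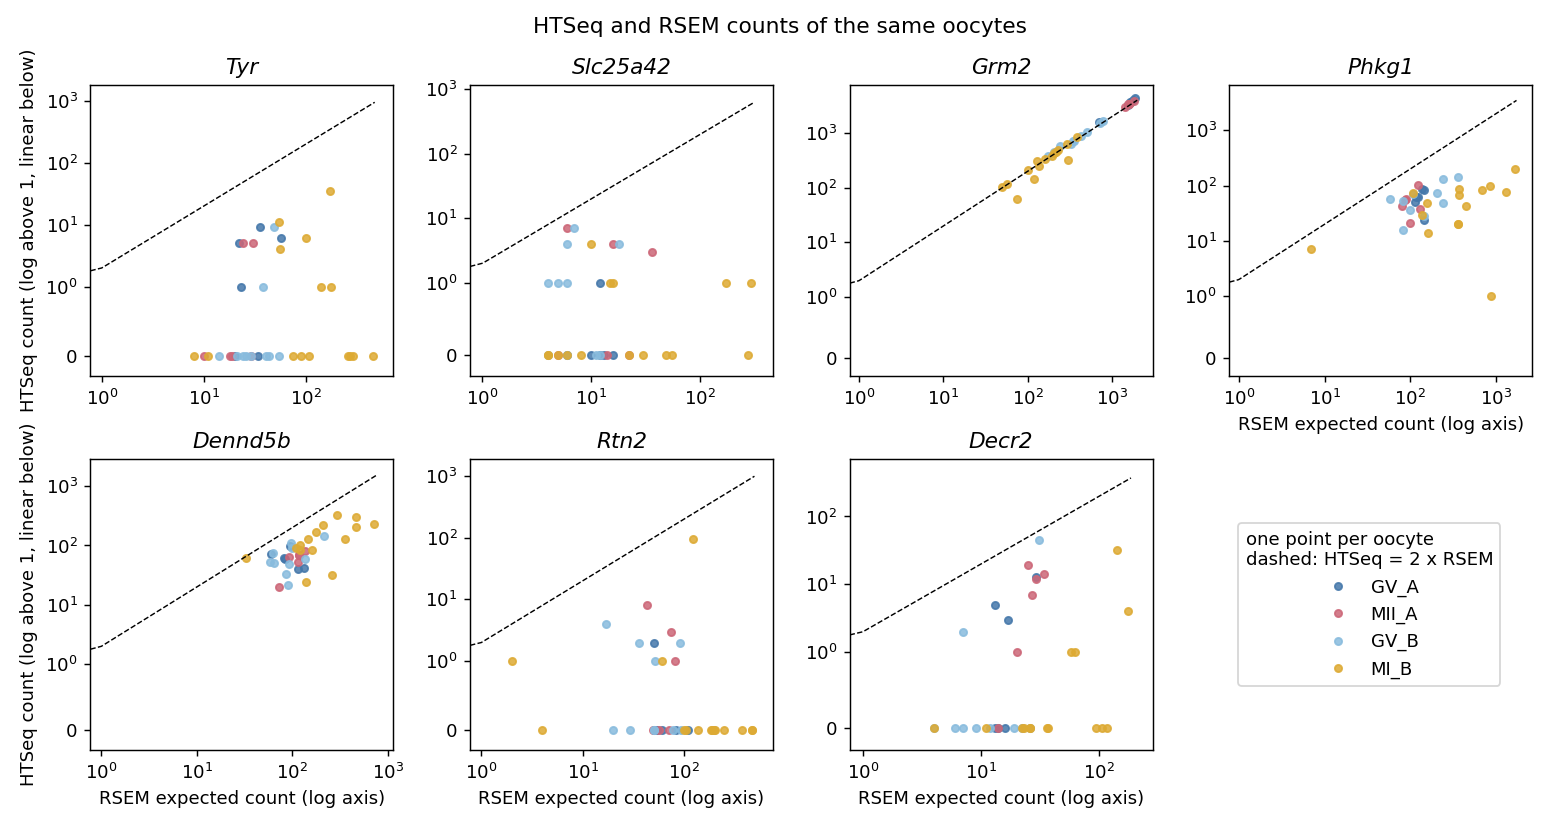
HTSeq counts against RSEM expected counts of each gene in the same oocyte, with 1 point per oocyte, both axes on a log scale with a linear stretch near 0 for HTSeq; the dashed line marks 2 HTSeq counts for each RSEM count. Grm2 lies along the line at a ratio of 2.03 in batch B, while Tyr, Slc25a42, Rtn2 and Decr2 lie far below it, many oocytes at 0 HTSeq counts.

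The transcript table shows which annotated forms took these counts. Most of Phkg1 was assigned to Phkg1-205, a non-coding transcript of 1 exon and 2119 bases (GRCm38, GENCODE M21, chromosome 5, 129869859 to 129871977, minus strand) that shares 0 bases with the coding exons of the gene. Its mean was 129 counts in GV_B and 482 in MI_B, a log2 difference of 1.72 ± 0.474, whereas Phkg1-201, which encodes the kinase subunit, had 31.9 and 30.9 counts, a difference of -0.04 ± 0.474. All counts of Rtn2 went to Rtn2-203, a transcript with a retained intron and no coding sequence (chromosome 7, 19282635 to 19289997, plus strand), with a mean of 51.6 counts in GV_B and 191 in MI_B. Without MI oocytes 4, 8 and 9 the differences were 1.80 ± 0.471 for Phkg1-205, -0.19 ± 0.484 for Phkg1-201 and 2.02 ± 0.413 for Rtn2-203. For both genes the counts that differed at MI were assigned to non-coding forms, but 814 of the 3498 bases of Rtn2-203 lie in coding exons of the gene, and how many of its reads fell there is not known from counts.

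Tyr and Decr2 were each carried by a coding transcript, Tyr-201 (chromosome 7, 87424771 to 87493512, minus strand) and Decr2-201 (chromosome 17, 26081211 to 26090337, minus strand). Dennd5b-201 (chromosome 6, 148988071 to 149101680, minus strand) took 95.8% ± 7.78 of the gene's counts in GV_B and 94.6% ± 12.0 in MI_B. Slc25a42 was divided among several forms on chromosome 8 (70184340 to 70212305, minus strand). The coding Slc25a42-202 held 44.1% ± 30.1 in GV_B and 57.9% ± 24.6 (SD, n = 15) at MI. Its mean was 3.4 counts in GV_B and 33.4 in MI_B. Slc25a42-204, with a retained intron and no coding sequence, had 2.2 and 16.3. Grm2-201 (chromosome 9, 106643117 to 106656080, minus strand) held 95.5% ± 1.69 of the receptor's counts in GV_B and 93.5% ± 4.96 in MI_B. These shares at MI, without oocytes 4, 8 and 9, were 93.6% ± 13.3 for Dennd5b-201, 54.1% ± 24.3 for Slc25a42-202 and 93.1% ± 5.44 for Grm2-201. The exons of Grm2-201 share 448 bases with those of Gm28111, the exons of Phkg1-201 630 with Sumf2 and those of Dennd5b-201 1310 with Gm26540. In these bases reads of the overlapping genes cannot be told apart without strand. Phkg1-205 and the leading transcripts of Tyr, Slc25a42, Rtn2 and Decr2 share 0 bases with exons of other genes at the same place.

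None of the member transcripts was called between GV_A and MII_A: 8 were tested, and edgeR and DESeq2 called 0 of them, against 1252 of 22461 transcripts (5.57%) for edgeR over the whole table, and 0 of the 8 had an unadjusted p under 0.05 in either tool, beside 5438 of all transcripts for edgeR. Between GV_B and MI_B edgeR called 0 of 22717 transcripts (0%), with 1615 at an unadjusted p under 0.05, and DESeq2 called 103. With MI oocytes 4, 8 and 9 left out edgeR called 0 of 21044, with 1468 at an unadjusted p under 0.05. The share of a gene's counts held by its leading transcript, which the choice of the genes did not use, was compared between GV_A and MII_A. A two-sided exact permutation test ran over 924 assignments of the 12 oocytes, and its smallest possible p is 0.00216 where shares are not tied. The share of Phkg1-205 was 73.9% ± 8.64 in GV_A and 68.4% ± 12.9 in MII_A (exact p = 0.413). For Grm2-201 it was 92.5% ± 1.16 and 92.1% ± 0.806 (exact p = 0.545), and for Slc25a42-202 54.3% ± 20.7 and 51.8% ± 22.6 (exact p = 0.844). Dennd5b-201 had exact p = 0.797. Tyr-201 (100% ± 0 and 98.6% ± 3.40) and Decr2-201 (98.7% ± 3.24 and 98.1% ± 4.54) had exact p = 1. Their shares were at 100% in all but single oocytes, so the test could not reach a low p for them. After adjustment over the 6 genes with more than 1 measured transcript every p was 1.

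MI oocytes were not alike, and those high for 1 of these genes tended to be high for the others, though not in the same order. Ranked from highest to lowest for the 6 genes other than Grm2, MI oocyte 11 had a mean rank of 1.67, oocyte 3 of 2.83 and oocyte 7 of 3, while oocytes 9 and 12 had 14 each. Others moved between genes: oocyte 2 ranked from 2 to 12 and oocyte 15 from 5 to 15. Oocyte 11 was among the top 5 for all 6 genes, with 23.5 CPM of Tyr, 24.1 of Slc25a42 and 38.4 of Dennd5b. Oocyte 9 held 0.689 CPM of Tyr and 0.344 CPM each of Slc25a42, Rtn2 and Decr2. Across the 15 MI oocytes Pearson's r of log2(CPM + 1) between pairs of the 6 genes ran from 0.452 to 0.880 over 15 pairs, with a median of 0.66, the highest for Phkg1 and Rtn2, and Spearman's rho ran from 0.532 to 0.882. With Grm2 the 6 pairs ran from -0.0971 to 0.419, with a median of 0.16; without oocyte 15 they ran from 0.156 to 0.396 with a median of 0.33, and without oocyte 9 the median was -0.011. Over the 12 MI oocytes other than 4, 8 and 9, r ran from 0.367 to 0.930 with a median of 0.68 for the 15 pairs and from -0.343 to 0.341 for those with Grm2, and oocytes 11, 3 and 7 still had the highest mean ranks (1.67, 2.5 and 3). The 15 pairs ran from -0.664 to 0.753 with a median of 0.28 in the 10 GV_B oocytes, from -0.212 to 0.945 with a median of 0.57 in the 6 GV_A oocytes, and from -0.785 to 0.916 with a median of 0.31 in the 6 MII_A oocytes. These values are descriptions: each oocyte's genes share a library and its depth, and the ranking and the pairs were looked at after the levels were known.

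Depth moved with some of these genes through a single oocyte. Over the 15 MI oocytes r with the log2 total of RSEM counts was 0.547 for Phkg1, 0.374 for Rtn2 and -0.43 for Grm2. Without the shallow oocyte 15 it was 0.0788, -0.22 and 0.0952. For Tyr, Slc25a42, Dennd5b and Decr2 it lay between -0.185 and 0.0995 with oocyte 15 and between -0.0939 and 0.0809 without it. With MI oocytes 4, 8 and 9 left out, r was 0.613 for Phkg1, 0.605 for Rtn2 and -0.435 for Grm2, and 0.0885, -0.241 and 0.232 without oocyte 15 as well. The part of depth in the differences at MI was not tested.

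**Figure D3:**
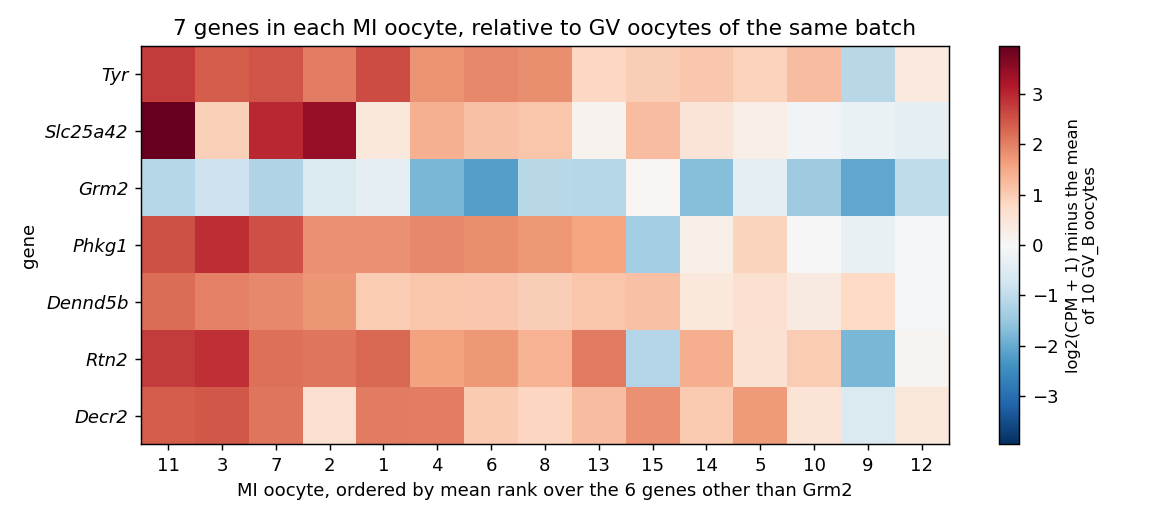
Each gene (rows) in each MI oocyte (columns, from the highest to the lowest mean rank over the 6 genes other than Grm2), coloured by log2(CPM + 1) minus the mean of the 10 GV_B oocytes. Oocytes 11, 3 and 7 are red for all 6 genes, and oocyte 9 is blue for all of them but Dennd5b.

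Genes with a low ratio of HTSeq to RSEM counts moved with several of these genes from oocyte to oocyte. The 1197 other genes of batch B with a ratio under 0.2 had a median log2 difference of 0.13 from GV_B to MI_B, against 0.01 for the 11215 genes with a higher ratio. From GV_A to MII_A the medians were 0.13 for 1187 genes and 0.01 for 11735. Over the 15 MI oocytes r between a gene and the median deviation of these low-ratio genes was 0.944 for Rtn2, 0.857 for Phkg1 and 0.790 for Tyr. It was 0.495 for Decr2, 0.480 for Slc25a42, 0.474 for Dennd5b and 0.0136 for Grm2. Single oocytes moved these values: without the shallow oocyte 15 r was 0.432 for Grm2 and 0.726 for Decr2, and without oocyte 9 it was -0.268 and 0.253. For the other 5 genes, with 1 oocyte left out, it ran from 0.924 to 0.958 for Rtn2, 0.787 to 0.891 for Phkg1, 0.688 to 0.876 for Tyr, 0.404 to 0.599 for Slc25a42 and 0.417 to 0.597 for Dennd5b. Without MI oocytes 4, 8 and 9, with the set defined again from the other oocytes, r was 0.928 for Rtn2, 0.844 for Phkg1 and 0.682 for Tyr, but 0.243 for Decr2, 0.401 for Slc25a42, 0.484 for Dennd5b and -0.233 for Grm2. The median differences were then 0.12 for 1069 low-ratio genes and 0.01 for 10853 others. The set was defined after the values were seen and from the same counts, so the correlations have no test, and what part of the differences at MI the low-ratio genes share was not tested.

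The genes whose levels most resembled these were, by Pearson's r of log2(CPM + 1) over the 25 oocytes of batch B among 11797 genes, Gm47598 (0.916) and Gm9894 (0.907) for Tyr. Dhdh (0.958) and Gm29773 (0.948) were nearest to Rtn2, AC154187.1 (0.924) and Gm48735 (0.919) to Phkg1, and Olfr95 (0.905) and Mpv17 (0.878) to Decr2. For Dennd5b they were B130034C11Rik (0.855) and Mpv17 (0.832), and for Slc25a42 Gm49747 (0.839) and Fes (0.794). Grm2 was nearest to Btf3l4 (0.832) and 1810037I17Rik (0.786). Of the genes nearest to Tyr, Decr2, Rtn2 and Dennd5b, all had an HTSeq to RSEM ratio under 0.2 in batch B, from 0.00356 for Olfr95 to 0.0715 for Mpv17, whereas those nearest to Grm2 had 1.27 and 1.92. Of the genes nearest to Slc25a42 and Phkg1, Gm49747 (0.00505) and Gm48735 (0.0069) were under 0.2, and Fes (0.228) and AC154187.1 (0.462) were not. The oocytes include both stages, so a shared difference between stages enters each r. Over the 22 oocytes left without MI oocytes 4, 8 and 9, r of these pairs lay between 0.763 and 0.954, and the nearest gene was the same for Tyr, Slc25a42, Rtn2 and Decr2. It was then Sumo2 for Grm2 (0.852), Gm21917 for Phkg1 (0.932) and Ppip5k1 for Dennd5b (0.882).

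Part of the leading transcript of each gene also occurs in transcripts of other genes, where an RSEM count can be divided if a whole read matches both. Each run of 30 bases (a word) in the leading transcripts was searched for in every GENCODE M21 transcript of other genes, on either strand; words shared only with genes that overlap the same place were set aside. Phkg1-205 had 329 such words, 15.7% of all its words, Decr2-201 211 (9.61%), Rtn2-203 321 (9.25%) and Slc25a42-202 224 (7.07%). Dennd5b-201 had 252 (2.57%), Tyr-201 147 (2.44%) and Grm2-201 3 (0.0641%). With words of overlapping genes counted as well, the shares of the 7 transcripts lay between the 53.7th and 76.8th percentile of 11803 genes, whose median was 1.57%. None of the 7 was over 20%, whereas 62.9% of the 965 genes with an HTSeq to RSEM ratio under 0.2 were, with a median of 38.0%, beside 20.1% of all genes. In the 5 coding transcripts the shared words covered 0 coding bases and lay within the 3′-UTR. The word with the most company occurred in 809 other genes for Tyr and Decr2, 808 for Phkg1, 1061 for Slc25a42 and Dennd5b, 2731 for Rtn2 and 1 for Grm2. A word found in at least 100 other genes, a limit set after the values were seen, was held by the leading transcripts of 6 of the 7 genes, all but Grm2, and by 17.6% of 11803 genes. That share was 48.1% among the 965 low-ratio genes and 14.9% among the other 10838. Where within a transcript the reads fell is not known from counts, and the part of shared words in the differences at MI was not tested.

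**Figure D4:**
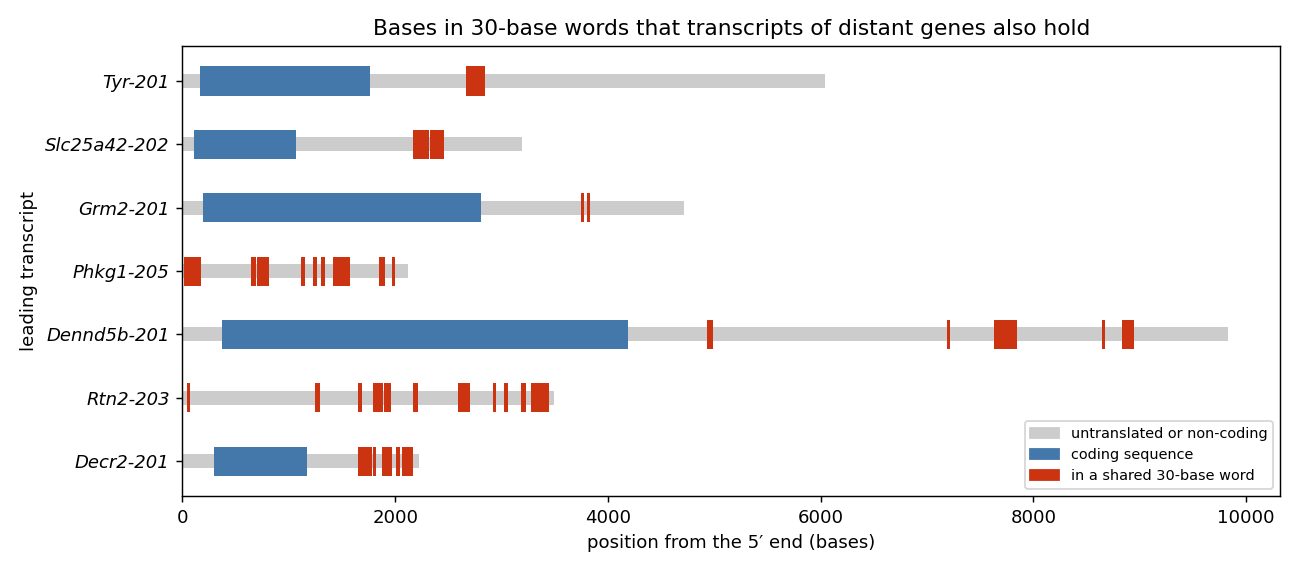
Leading transcript of each gene drawn to scale from its 5′ end, in bases, with coding sequence in blue, untranslated or non-coding sequence in grey and bases in 30-base words shared with distant genes in red. The red stretches lie outside the coding sequence, cover 180 bases in Tyr-201 and 61 bases in Grm2-201.

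Some pairs of these genes shared words with each other, the most being 20 between Tyr-201 and Decr2-201. Phkg1-205 had 19 words in common with each of Tyr-201, Rtn2-203 and Decr2-201, 18 with Slc25a42-202 and 12 with Dennd5b-201. Grm2-201 shared 0 with any of the other 6, and 0 were also shared by Tyr-201 and Slc25a42-202, and by Rtn2-203 with each of Tyr-201, Dennd5b-201 and Decr2-201. The non-coding leading transcripts are shown by 1 word each, since they took most of the counts of their genes, and capitals mark the whole word. A word is shorter than a read, so whether reads there were divided is not known from counts. That of Phkg1-205 (GRCm38 chr5:129871907-129871936, minus strand, its only exon) occurs in 73 other genes, and that of Rtn2-203 (chr7:19289839-19289868, plus strand, its last exon) in 75.
Phkg1-205: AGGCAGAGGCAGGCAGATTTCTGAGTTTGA
Rtn2-203: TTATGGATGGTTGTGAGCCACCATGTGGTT

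The ends of the leading transcripts were read because maturing oocytes lengthen or shorten poly(A) tails through elements near the transcript end. TTTTAT or TTTTAAT, forms of the cytoplasmic polyadenylation element, occurred on the sense strand of the last 200 bases in 1 of the 7 leading transcripts, Tyr-201, and in 28.0% of 11803 genes. The polyadenylation signal AATAAA or ATTAAA occurred in the last 50 bases of 4 of the 7, Tyr-201, Slc25a42-202, Dennd5b-201 and Decr2-201, and in 72.2% of all. It was not in that window of Grm2-201, Phkg1-205 and Rtn2-203. A match is a description of the annotated end and not of a site in use. The stretches below are from the 3′-UTR (GENCODE M21, GRCm38, all on the minus strand), with the matched letters in capitals: 81 and 26 bases before the end of Tyr-201 (chr7:87424834-87424863 and chr7:87424779-87424808), 18 before that of Slc25a42-202 (chr8:70184340-70184369), 21 before that of Dennd5b-201 (chr6:148988074-148988103) and 48 before that of Decr2-201 (chr17:26081241-26081270).
Tyr-201 element: tatattactttaTTTTAATgatgaagaagc
Tyr-201 signal: gtcaaaaaccctATTAAAttgtatgtatca
Slc25a42-202 signal: cagagtatatttAATAAAattttaaatatc
Dennd5b-201 signal: tttgttctttacAATAAAactgtggggttg
Decr2-201 signal: aaagaaatctttAATAAAaacgtttctaga

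Partners of each gene were followed from GV_A to MII_A through 7 lists, each of which includes the gene itself, and are given as counts of genes called and the median log2 fold change, beside 8.47% called and a median of 0.01 over all genes. Of the melanin synthesis list around Tyr, 6 of 12 genes were tested, 1 was called higher and 1 lower, and the median was -0.11. Dct, the enzyme after tyrosinase and the most abundant of the list per length, ran from 87.3 to 219 CPM in GV_A and from 242 to 331 CPM in MII_A, with no overlap, or 1.06 ± 0.210 on the log2 scale (edgeR adjusted p = 0.00257). HTSeq assigned only 0.0103 counts to Dct for each RSEM count and gave -0.44 (adjusted p = 0.727). That sign rested on GV_A oocytes 1 and 2, with 61 and 76 HTSeq counts, since the other 4 of GV_A had 3 to 9 and those of MII_A 15 to 29. The call of Dct was lost with batch as a covariate (adjusted p = 0.0919), with spike-in size factors (0.41 on the log2 scale) and, under the fold threshold, without GV_A oocyte 2 or 5 (0.96 each); its adjusted p ran from 3.06e-06 to 0.727 over the alternatives. Oca2, a melanosome transporter, was lower at MII, at 2.83 ± 1.61 CPM against 7.32 ± 2.68 in GV_A, and its log2 fold change was -1.37 ± 0.378 (edgeR adjusted p = 0.0178, over the alternatives 0.000360 to 0.0941). The call of Oca2 was lost with batch as a covariate (adjusted p = 0.0941) and without GV_A oocyte 5 (adjusted p = 0.0503).

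In the coenzyme A list around Slc25a42, 7 of 12 genes were tested, with 1 called higher, 0 lower and a median of -0.07. The called gene, Ppcdc, of coenzyme A synthesis, rested on MII_A oocyte 1, at 42.6 CPM against 2.08 to 3.95 in the other MII oocytes and 1.14 to 3.43 in GV_A. Its log2 fold change was 2.01 ± 0.690 (edgeR adjusted p = 0.0482), and 0.36 without that oocyte (adjusted p = 0.511); over the alternatives the adjusted p ran from 7.53e-05 to 0.511, and HTSeq counts gave -0.59. The call was also lost with the replicate block (0.94, adjusted p = 0.302), with batch as a covariate (adjusted p = 0.111), with spike-in size factors (adjusted p = 0.0930) and without any single GV_A oocyte (adjusted p from 0.0674 to 0.0919), and DESeq2 gave Ppcdc no adjusted p. Pank2, a kinase of coenzyme A synthesis, was the most abundant per length. Around Phkg1, 16 of 20 glycogen genes were tested, with 0 called higher, 1 lower and a median of 0.11. Calm2, one of the calmodulin genes, whose product is a subunit of phosphorylase kinase, was also lower, with 98.2 ± 35.1 CPM in MII_A and 219 ± 48.3 in GV_A, or -1.15 ± 0.221 on the log2 scale (edgeR adjusted p = 0.00201, over the alternatives 1.57e-07 to 0.00888). The most abundant gene per length was Gyg, glycogenin, at 881 ± 198 CPM in GV_A.

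In the other 4 lists edgeR and DESeq2 called 0 genes at the thresholds above. Around Grm2, 12 of 16 genes of metabotropic receptors and inhibitory G proteins were tested, with a median of 0.20, and Rgs2, a regulator of G protein signalling, was the most abundant per length. Around Dennd5b, 17 of 22 DENN domain and Rab genes were tested, with a median of 0.27. Dennd6a was the most abundant per length in GV_A, at 26.7 CPM per kilobase, close to Rab6a at 26.1. The reticulon list around Rtn2 had 15 of 17 tested, a median of 0.04 and Arl6ip1 as the most abundant gene. The peroxisomal list around Decr2 had 16 of 20 tested, a median of 0.07 and Pecr, a peroxisomal enoyl-CoA reductase, as the most abundant gene. At an unadjusted p under 0.05 edgeR counted 4 genes in the receptor list, 5 in the DENN list, 4 in the reticulon list and 4 in the peroxisomal list, beside 34.3% of all genes tested.

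Markers of oocytes and of other cell types were summed in each oocyte because several of these genes are known from other tissues. All 12 oocyte markers had counts in each group, with a median sum of 14020 CPM in GV_A, 9104 in MII_A, 5178 in GV_B and 4475 in MI_B, and Gdf9 was the most abundant. Of the 6 melanocyte markers, Tyrp1 was at 0 in every oocyte and Mlana and Sox10 were at 0 in GV_A and MI_B. Their sum had a median of 128, 309, 138 and 182 CPM in GV_A, MII_A, GV_B and MI_B, nearly all of it Dct. The 16 cumulus and granulosa markers summed to a median of 52.1, 39.3, 38.3 and 36.9 CPM in the same order, led by Cyp19a1 except in MI_B, where Nr5a2 led, and Amh, Amhr2 and Foxl2 were at 0 in both groups of batch B. The similar sums of GV_B and MI_B hide moves of single markers. From GV_B to MI_B mean Gja1 went from 3.13 to 0.276 CPM and Ccnd2 from 3.59 to 0.248 CPM, both called lower at MI. No other marker of the list was called there, and Nr5a2 had a mean of 20.1 CPM in MI_B. Neuron markers had medians of 189, 211, 154 and 142 CPM, led by Tubb3, with Slc17a7 at 0 in batch B. Skeletal muscle markers, beside Phkg1, had medians of 0.968, 0.334, 0.874 and 0.998 CPM, led by Myh1, with Acta1 and Tnnt3 at 0 in batch A. Blood and immune markers had 0.753, 1.33, 5.20 and 3.31 CPM, led by Cd68 in batch A and Hbb-bs in batch B, with Adgre1 at 0 in each group but MII_A. The part of other cells in the levels of the 7 genes was not tested.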

How the data were processed

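The authors trimmed reads with Trim Galore 0.6.4 and deposited expected counts of genes and of transcripts from RSEM 1.3.1, on mm10 with GENCODE VM20 and spike-in sequences. The deposited HTSeq counts per gene came from STAR 2.7.6a and HTSeq 0.12.4, and neither table was normalised. Here expected counts were rounded, 92 spike-in rows were left out, and identifiers were matched without version to GENCODE M21. Each main comparison was fitted within its batch in edgeR 4.0.16 (R 4.3.3) with filterByExpr, TMM factors and the quasi-likelihood test, which was tested on simulated data. Alternatives were DESeq2 1.42.0 and its size factors, no filter, HTSeq counts, spike-in factors, batch as a covariate over all 37 oocytes, the oocyte number as a block, and single oocytes or MI oocytes 4, 8 and 9 left out. Words and transcript ends were read with Python 3.11.15. Named genes were the 7 genes, the 2 most correlated with each, and from each pathway list the called genes (at most 4) and the most abundant per length. The genes and lists were chosen with earlier results of these data known, and so were the alternative without the 3 MI oocytes, and the ratio limits, shared words, ranks and pairs, and the ratios, levels per length, transcripts and correlations without single oocytes or those 3, were added after the values were seen. Counts limit precision most for Slc25a42 and Decr2, at medians of 6 and 10.5 expected counts in GV_B.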

Additional observations from a re-analysis of the deposited data

Results flagged for a closer look

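Of 21 groups of 6 or 10 oocytes checked for a distant highest or lowest value, 1 was marked: Tyr in GV_A oocyte 4, at 6.34 CPM, where the other 5 oocytes lay between 1.76 and 2.88 CPM. Chance marks about 1 in 20 groups (5%). Without that oocyte the log2 fold change of Tyr from GV_A to MII_A was -0.15 (edgeR adjusted p = 0.815), against -0.50 (adjusted p = 0.370) with it, and over all alternatives the adjusted p ran from 0.0378 to 0.815. The same oocyte was also the highest of GV_A for Grm2, Dennd5b, Rtn2 and Slc25a42, at 198, 14.7, 12.1 and 1.78 CPM, so for 5 of the 7 genes.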

How the results depend on the processing

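From GV_B to MI_B the 7 genes kept their sign in every alternative that could be fitted, except Phkg1: HTSeq counts gave it 0.06 on the log2 scale, and -0.080 without MI oocytes 4, 8 and 9. Slc25a42, Decr2, Tyr and Rtn2 could not be fitted with HTSeq counts. Mean HTSeq CPM was lower in MI_B than in GV_B for Slc25a42 (0.0493 against 0.126) and Decr2 (0.161 against 0.237). For Tyr (0.374 against 0.0666) and Rtn2 (0.709 against 0.0714) it was higher. The direction of Decr2 rested on GV_B oocyte 9 and that of Rtn2 on MI oocyte 6, and without them each was turned. From GV_A to MII_A none was called in any alternative but spike-in size factors, where 2 of the 7 were called beside 3919 of all 12929 genes. With those factors Slc25a42 (-0.10), Grm2 (-0.52), Dennd5b (-0.42) and Decr2 (-0.13) changed sign. Those factors moved the median of all genes to -0.72, and the genes that changed sign stayed above it. Rtn2, at -0.06, had 0.022 with the replicate block, 0.0031 with batch as a covariate, and -0.17 to 0.23 with 1 oocyte left out, above 0 without GV_A oocyte 4 (0.23) or MII_A oocyte 1 (0.026) or 4 (0.030). HTSeq counts reversed Dct (-0.44, through GV_A oocytes 1 and 2) and Ppcdc (-0.59). Genes called between GV_A and MII_A (1095) numbered 1859 without a filter (895 higher and 964 lower), 653 with batch as a covariate (227 higher and 426 lower), 3919 with spike-in factors and 842 to 1246 with 1 oocyte left out. Those between GV_B and MI_B (15) numbered 40 without a filter (18 higher and 22 lower), 116 with DESeq2, 107 with batch as a covariate, 36 without MI oocytes 4, 8 and 9, 0 with HTSeq counts with or without them, and 0 (without MI oocyte 7) to 82 (without MI oocyte 9) with 1 oocyte left out; the cause was not tested. Transcripts called in batch B (0) numbered 2 without a filter, 103 with DESeq2 and 0 without MI oocytes 4, 8 and 9. With the replicate block, genes numbered 886 in batch A and 0 in batch B, where MI oocytes 11 to 15 have no partner. Transcripts of batch A numbered 532 instead of 1252. The oocyte numbers do not pair the oocytes: same-number pairs correlated by -0.407 to 0.343 in batch A, 1 of 6 over 0.1, and by -0.22 to 0.142 in batch B, 1 of 10 over 0.1. Shares of the leading transcripts had 0 calls with any 1 oocyte left out. Sign flips over 6 same-number pairs gave 0 calls, but they have few possible outcomes and could hardly give a call, so nothing is drawn from them.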
